A study of Ovis aries with 30 samples.

Results

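Kidneys of adult sheep were compared with kidneys of fetuses at day 90 of gestation, over every gene that could be named on the array, with weight on genes whose change was spread over the time between. The comparison rests on 10 of the 30 arrays of the series, 5 adult and 5 fetal. The remaining kidney arrays are 5 from lambs 10 weeks old, which were kept in the same fit and divide the span into a first step (fetus to 10 weeks) and a second step (10 weeks to adult). The animals were sheep (Ovis aries), described as biological replicates, with no treatment or genotype given, and an adult age in years is not given in the labels. Total RNA of frozen tissue was hybridised to an Affymetrix array designed for cattle, so a sheep transcript that differs from the bovine probe reads low, and a level is never compared here between genes. Values are log2 units after robust multiarray averaging (RMA), and 9155 genes were tested, each by 1 probe set. A gene is called when its adjusted p is below 0.05 in the limma fit. The p-values measure the spread between these animals.

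The permanent kidney grows from the ureteric bud, which branches into the collecting ducts, and from a cap of mesenchyme that turns into nephrons, with stroma between them. In sheep, nephrons are still being made at mid gestation and the making of nephrons ends before birth. Before birth the placenta clears the waste of the fetus, and after birth the tubules take over reabsorption, acid secretion, glucose production and the excretion of organic anions. Genes of dividing progenitors and of embryonic matrix are therefore known to be prominent in fetal kidney, and transporters and enzymes of the tubule in mature kidney.

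Adult kidney differed from fetal kidney in 4198 genes, 45.9% of those tested. Of these, 2179 (23.8%) were higher in adults and 2019 (22.1%) lower. The 5 adult values all lay above the 5 fetal values for 1558 of the genes called higher (17.0% of all tested), and all lay below for 1512 of those called lower (16.5%). A difference over 1 log2 unit was seen for 519 higher and 489 lower genes, and a difference over 2 units for 124 and 152. Over all genes the median difference was 0.02. In whole tissue, fewer cells of a type and less RNA per cell cannot be told apart.

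The first step alone gave 4111 calls (44.9%) and the second step 300 (3.28%). The 3 contrasts share arrays, so their lists of genes are not independent of each other. Between these steps lay 754 genes that were called over the whole span and in neither step, 371 of them higher in adults (4.05% of all genes) and 383 lower (4.18%). With each array centred on its own median the same rule gave 552 higher and 276 lower. Their median difference was 0.37 in size, against 0.58 over all called genes, and 16 of them exceeded 1 log2 unit. In 732 of the 754, both step means had the sign of the net change. The rule itself favours this, because a step of opposite sign requires the other step to exceed the net change and still miss the threshold. It favours small net changes too, so neither value is read as a result about these genes. For 337 of them the adult and fetal arrays did not overlap, 170 higher and 167 lower. A step that missed the threshold is not shown to be without change.

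A second pattern was a strict order of age, in which neighbouring ages did not overlap on any of the 15 arrays. This held for 44 genes that rose (0.481%) and 76 that fell (0.830%). With arrays centred on their medians these were 59 and 60. Leaving out the 10-week array 10 raised the rising count to 67.

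Adult array AD-444 stood apart. On it, 235 genes lay over 1 log2 unit from the median of the other adults, 189 of them lower, whereas 17 to 60 genes did so on the remaining 14 kidney arrays. Its mean correlation with the other adults was 0.9842, against 0.9894 to 0.9913 for those 4. The GAPD control probe sets, which read the 3′ and the 5′ end of one transcript, differed by 1.54 on this array and by -0.69 to 0.14 on the other kidney arrays, and the part of this in any result was not tested. The same difference for the actin control was ordinary on AD-444 (0.78), but it moved with age, with 1.36 ± 0.14 in fetuses, 0.76 ± 0.29 in lambs and 0.89 ± 0.28 in adults (SD, n = 5 each), and its part in the results was not tested either. Without AD-444 the comparison called 2285 genes higher and 1988 lower, and 622 genes were called over the span and in neither step, 447 of them among the 754. Ordered genes then numbered 64 rising and 98 falling. 

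**Figure D1:**
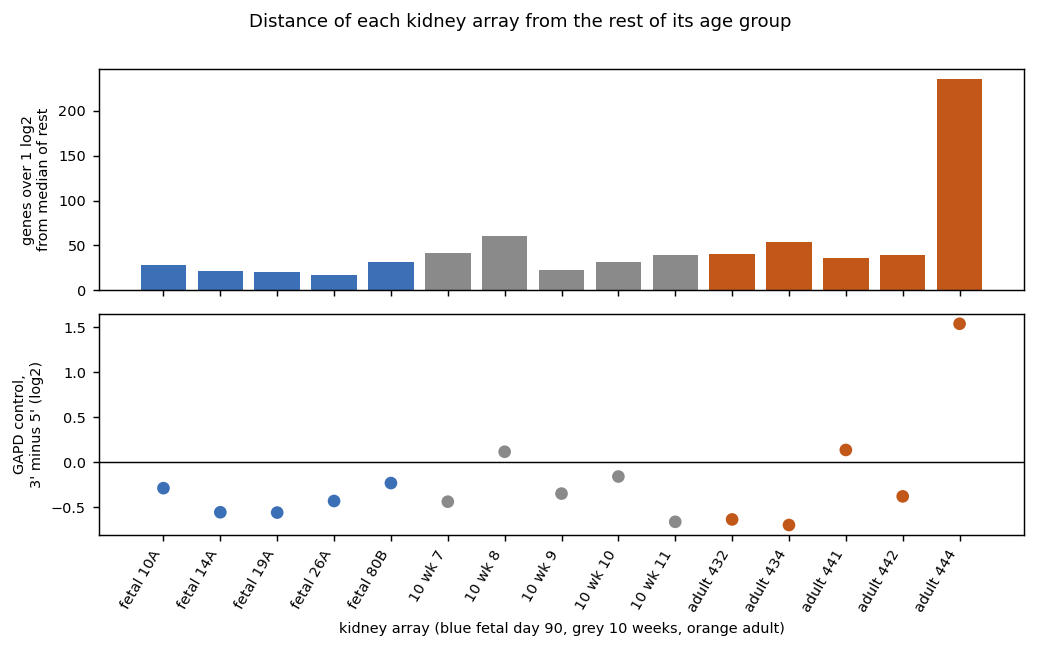
Top, the number of genes lying over 1 log2 unit from the median of the other arrays of the same age, for each of the 15 kidney arrays (for AD-444, 235 genes). Bottom, the 3′ minus 5′ difference of the GAPD control probe sets in log2 units, at 1.54 in AD-444 and at most 0.14 elsewhere.

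The tissue label was checked against genes that define kidney cells. UMOD, the urinary protein of the thick ascending limb, read 11.17 to 11.60 in fetal and 12.94 to 13.26 in adult arrays. SLC12A1, the sodium-potassium-chloride carrier of the same segment, read only 3.92 to 4.40 and 3.96 to 4.15, near the bottom of the array's range, so this marker was not seen at either age. SLC22A6 and SLC22A8, the organic anion transporters of the proximal tubule, rose by 6.28 and 5.66.

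Among genes called over the span and in neither step, PAGE4, a member of a family of cancer-testis antigens, had the largest rise. It read 5.85, 5.49, 5.91, 5.91 and 6.34 in the fetal arrays and 6.42, 7.52, 9.79, 9.60 and 9.50 in the adult arrays. All adult values were above all fetal ones, but AD-432 and AD-434 lay well below the other adults. The lambs, at 5.90 to 7.43, overlapped both groups. The rise was 2.66 ± 0.52 (SE, n = 5 a side, adjusted p = 0.00046), made of step means of 0.87 (adjusted p = 0.188) and 1.79 (adjusted p = 0.0738).

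SLCO4C1, an organic anion transporter of the proximal tubule, read 4.10, 3.98, 3.69, 4.43 and 4.0 in fetuses and 5.19, 5.93, 5.25, 4.44 and 7.27 in adults. AD-442 barely exceeded the highest fetus, and AD-444 was far above the rest. Its rise of 1.58 ± 0.38 (adjusted p = 0.00292) was 1.16 without that array (adjusted p = 0.00259). SLC2A5, the fructose carrier GLUT5, read 8.35, 8.61, 8.62, 8.69 and 8.31 in fetuses and 9.71, 9.60, 9.85, 10.55 and 9.02 in adults, again with no overlap. The lambs were split, with 9.40, 10.33, 8.23, 7.76 and 8.31: lambs 7 and 8 lay in the adult range and the remaining 3 at or below the lowest fetus. The net rise was 1.23 ± 0.38 (adjusted p = 0.0132). All 3 probe sets of SLC2A5 moved upward, by 0.83 to 1.23.

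RRAGD, a Rag GTPase that couples amino acids to mTORC1 at the lysosome, read 7.57, 7.33, 8.15, 7.60 and 8.01 in fetuses and 9.54, 9.14, 8.58, 8.66 and 8.62 in adults. The groups did not overlap and the lambs spanned both (7.42 to 8.84). It rose by 1.18 ± 0.26 (adjusted p = 0.00116). EPB41L3, a membrane-skeleton adaptor, read 8.01, 7.88, 7.71, 8.08 and 7.99 and then 8.78, 8.84, 9.38, 9.03 and 9.01, a rise of 1.07 ± 0.20 (adjusted p = 0.000345) with lambs at 7.68 to 8.94. Here too each adult exceeded each fetus while the lambs covered nearly the whole distance between them.

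RHCG, the ammonia transporter through which intercalated cells and their neighbours secrete ammonia, read 7.15, 6.80, 7.58, 7.39 and 7.48 in fetuses, 8.04, 7.37, 9.07, 8.0 and 7.68 in lambs and 9.34, 8.11, 7.89, 7.64 and 8.44 in adults. All adults lay above all fetuses, and AD-432 and lamb 9 were the high values of their groups. The net rise was 1.0 ± 0.31 (adjusted p = 0.0135). CTLA4, the inhibitory receptor of T cells, read 4.23, 4.14, 5.01, 4.46 and 4.06 and 5.09, 5.33, 5.90, 5.11 and 5.72. Fetus 19A was high enough to come close to the lowest adults, and the rise was 1.05 ± 0.20 (adjusted p = 0.000298). The second CTLA4 probe set differed by 0.20.

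NRSN1, a vesicle membrane protein of neurons, had lamb values of 4.31 to 4.79 that all lay above the fetal 4.03 to 4.21, and adults at 4.62 to 5.67 with AD-444 highest, so the net rise of 1.0 became 0.86 without it. CYP17A1, a steroid hydroxylase, read 4.72 to 5.69 in fetuses and 5.70 to 6.67 in adults, a rise of 0.91 ± 0.19 (adjusted p = 0.000745). PTGFR, the receptor for prostaglandin F2-alpha, rose by 0.87, and ARSK, a lysosomal sulfatase, by 0.85. ADH1C, an alcohol dehydrogenase, is in the same set with 0.94, but its adults read 3.39, 4.23, 3.50, 5.59 and 3.52, so that AD-442 carried much of the difference, and the lambs at 2.86 to 3.12 did not lie between the ages. Fetal values of CTLA4 (4.06 to 5.01), SLCO4C1 (3.69 to 4.43), NRSN1 and ADH1C (3.01 to 3.26) were near or below those of SLC12A1. These genes may therefore not have been seen in fetuses.

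Among the falls, GNGT1, known as a subunit of the G protein of rod photoreceptors, was the largest. It read 7.04, 7.49, 7.16, 7.49 and 7.35 in fetuses, 6.77, 4.58, 6.76, 7.34 and 7.39 in lambs and 4.42, 4.47, 6.97, 6.87 and 5.46 in adults. The adults fell into low (AD-432, AD-434), middle (AD-444) and high (AD-441, AD-442) values, and lamb 8 was nearly as low as the lowest adults. The net change was -1.67 ± 0.54 (adjusted p = 0.0176), and without AD-432 its adjusted p was 0.0506. The only GNGT1 probe set may match several transcripts.

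ING4, a chromatin reader of the inhibitor of growth family, read 10.38, 10.93, 10.73, 10.43 and 10.64 in fetuses and 10.06, 10.07, 9.27, 9.84 and 7.77 in adults. No adult reached the fetal range, and AD-444 was lowest by far. It fell by 1.22 ± 0.34 (adjusted p = 0.00686), and the difference was -0.81 without that array (adjusted p = 0.00277). Its probe set may match several transcripts, and the others differed by -0.37 and -0.31. SSBP4, a single-stranded DNA binding protein, fell by 1.18 (adjusted p = 0.00183), with AD-441 and AD-444 at the low end of 4.48 to 6.34 against fetal values of 6.39 to 6.68. Both SSBP4 probe sets may match several transcripts, and the other one differed by 0.15 the opposite way.

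GFRA2, the co-receptor for neurturin, read 6.30, 7.12, 6.74, 6.89 and 6.70 in fetuses and 6.15, 5.36, 5.70, 6.24 and 4.60 in adults. The groups did not overlap, and the net change was -1.14 ± 0.25 (adjusted p = 0.00148). Without AD-444 it was -0.88. FABP5, a fatty acid binding protein, read 12.08, 11.78, 11.75, 11.70 and 12.04 and 10.77, 10.76, 11.35, 11.47 and 10.62. The lambs at 11.23 to 11.79 lay between, overlapping both neighbours, and the fall over the span was 0.88 ± 0.16 (adjusted p = 0.000251).

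BMP4, a ligand that acts on nephron progenitors and the ureteric bud, read 8.54, 8.74, 8.63, 8.62 and 8.68 in fetuses, 8.26, 7.74, 8.08, 8.30 and 8.42 in lambs and 8.39, 8.27, 7.89, 8.28 and 6.41 in adults. The 4 adults other than AD-444 lay just below the fetal range, and AD-444 far below them. The difference was -0.79 ± 0.28 (adjusted p = 0.0278) with this array and -0.43 without it (adjusted p = 0.0113). The call was lost without fetus 14A (adjusted p = 0.0532) or fetus 80B (adjusted p = 0.0503), and in a fit of the fetal and adult arrays alone (adjusted p = 0.0536).

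The remaining falls named in this set were MYOZ3 (-0.84), MTRF1 (-0.79), PAPOLA (-0.68), TGFBI (-0.68), NDST2 (-0.67) and KMT2E (-0.66). TGFBI, a matrix protein, read 9.19 to 9.57 in fetuses, 8.93 to 9.31 in lambs and 8.37 to 9.03 in adults, with overlap between neighbouring ages and none between fetuses and adults. PAPOLA, the nuclear poly(A) polymerase, was not called by its other probe set (-0.25), and KMT2E, a chromatin protein, was not called by a probe set brighter in kidney (-0.14).

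**Figure D2:**
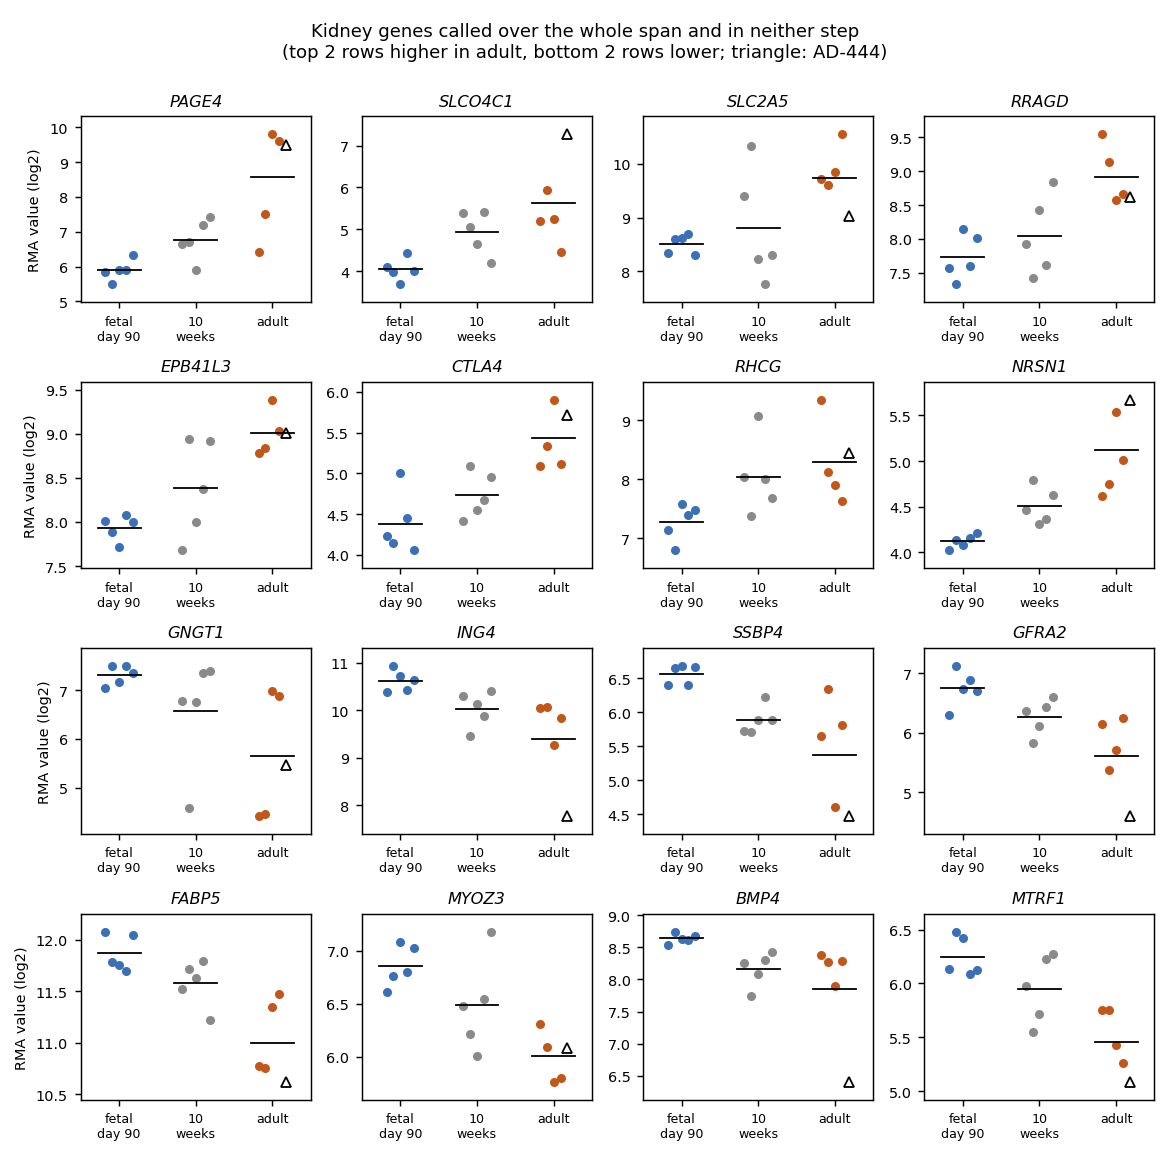
RMA values in log2 units of 16 genes called over the whole span and in neither step, by age group, with a line at each mean and AD-444 drawn as an open triangle (the vertical axes differ). In PAGE4 the adults run from 6.42 to 9.79, and in BMP4 the lowest adult is AD-444 at 6.41.

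Genes called over the span and in neither step made up 8.24% of all genes and 7.04% of the 1080 genes in the lists. They were found in 37 of the 51 lists, and the other 14 held none, among them mitosis, fatty acid oxidation, the tricarboxylic acid cycle and amino acid enzymes. The 5 lists described next had the largest shares among those holding at least 3. BMP, TGF-beta and FGF signalling held 7 of its 31 measured members, namely BMP4, BAMBI (-0.45), ID3 (-0.43), TGFB1 (-0.38), LTBP1 (-0.56), FGF1 (-0.35) and, upward, SMAD5 (0.33). Splicing and nuclear ribonucleoproteins held 6 of 41, all lower: HNRNPK (-0.18), HNRNPM (-0.37), SRSF9 (-0.18), SF3B2 (-0.27), SNRPA1 (-0.45) and PTBP1 (-0.44). The peroxisome list held 4 of 26, all higher, with HSD17B4 (0.42), PEX2 (0.55), PEX10 (0.47) and ABCD4 (0.27). Skeletal and cardiac muscle genes gave 4 of 19, with TNNC1 (1.24), MYL3 (0.64) and MYH8 (0.42) higher and TNNT1 (-0.68) lower. The smooth muscle list gave 3 of 11, all lower, among them ACTA2 (-0.49) and TPM2 (-0.64).

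Of the genes in strict order of age, KCNE1, a regulatory subunit of potassium channels, rose most. It read 6.16, 5.67, 6.17, 6.04 and 5.98 in fetuses, 9.06, 7.72, 8.26, 7.67 and 7.81 in lambs and 10.50, 10.69, 10.05, 10.59 and 10.24 in adults. Each age was clear of the next, and lamb 7 was the highest of its group. The net rise was 4.41 ± 0.22 (21.2-fold, adjusted p = 6.73e-11), split almost evenly into 2.10 and 2.31.

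ADH4, an alcohol dehydrogenase that also oxidises retinol, read 3.30 to 5.82 in fetuses, 6.05 to 7.57 in lambs and 8.44 to 8.96 in adults and rose by 4.26 ± 0.35 (adjusted p = 3.27e-08). PER2, a core repressor of the circadian clock, read 5.78, 5.59, 5.66, 5.85 and 5.90 in fetuses, 6.41, 6.97, 7.44, 7.39 and 7.11 in lambs and 7.82, 8.20, 8.02, 8.22 and 8.52 in adults. Each age was clear of the next, with steps of 1.31 and 1.09 and a net rise of 2.40 ± 0.17 (adjusted p = 4.69e-09). Its second probe set differed by 1.55.

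BDH1, the ketone body dehydrogenase of mitochondria, rose by 2.68. SQOR, which oxidises sulfide there, rose by 2.73, and AADAT, an aminotransferase of the kynurenine pathway, by 2.36. For these 3 most of the rise lay in the first step (1.92, 2.22 and 1.88). TRPM3, a cation channel, rose by 2.32. ITGAD, an integrin subunit of leukocytes, rose by 3.21, and its second probe set differed by 0.40.

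Immune genes were also in this ordered set. CCL19, a chemokine that draws T cells and dendritic cells, read 5.84 to 6.45 in fetuses, 7.28 to 7.52 in lambs and 7.88 to 8.83 in adults. JCHAIN, which joins secreted IgA and IgM, read 9.60 to 10.12, 10.91 to 11.45 and 11.94 to 12.34. CD3E, a subunit of the T cell receptor complex, read 6.74, 6.46, 6.74, 6.70 and 7.58 in fetuses and 9.11, 9.05, 8.97, 8.60 and 8.90 in adults, with fetus 80B the highest fetal value. It rose by 2.08 ± 0.17 (adjusted p = 2.13e-08).

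MEST, an imprinted gene expressed from the paternal allele, had the largest ordered fall. It read 12.19, 11.93, 11.87, 12.09 and 12.11 in fetuses, 8.46, 8.26, 7.41, 8.07 and 8.0 in lambs and 6.72, 5.93, 6.58, 6.33 and 6.72 in adults. The groups were far apart, and the fall was 5.58 ± 0.18 (47.9-fold, adjusted p = 3.76e-13), with 4.0 in the first step and 1.58 in the second. All 4 MEST probe sets were lower in adults (-1.0 to -5.58). COPG2, the neighbour of MEST in the sheep gene table and a coat protein subunit, was named after its values were seen. It read 7.49, 7.55, 7.46, 7.44 and 7.60 in fetuses, 4.34, 4.27, 4.23, 4.05 and 4.18 in lambs and 4.04, 3.80, 3.93, 3.55 and 3.57 in adults, also in order of age, and fell by 3.73 ± 0.10 (adjusted p = 3.75e-14).

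NNAT, another imprinted gene, fell by 4.03, and PHLDA2, an imprinted growth-restraining gene, by 3.85. The ordered falls were otherwise led by genes of cell division. CDCA8, a subunit of the chromosomal passenger complex, read 9.39, 9.36, 9.47, 9.60 and 9.55 in fetuses, 7.37, 6.85, 5.94, 6.58 and 6.13 in lambs and 4.66, 5.02, 5.12, 5.05 and 4.84 in adults and fell by 4.54 ± 0.20 (adjusted p = 1.85e-11). The lambs were the most spread of the 3 groups. CCNB1, the mitotic cyclin, read 9.69 to 10.05, 6.88 to 8.69 and 5.90 to 6.30 and fell by 3.83. NDC80 of the kinetochore (-4.22), ASPM of the spindle pole (-3.99), CIT of the cleavage furrow (-3.93), UBE2C of the anaphase-promoting complex (-3.92) and PCLAF, which binds PCNA (-3.89), had the same order.

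**Figure D3:**
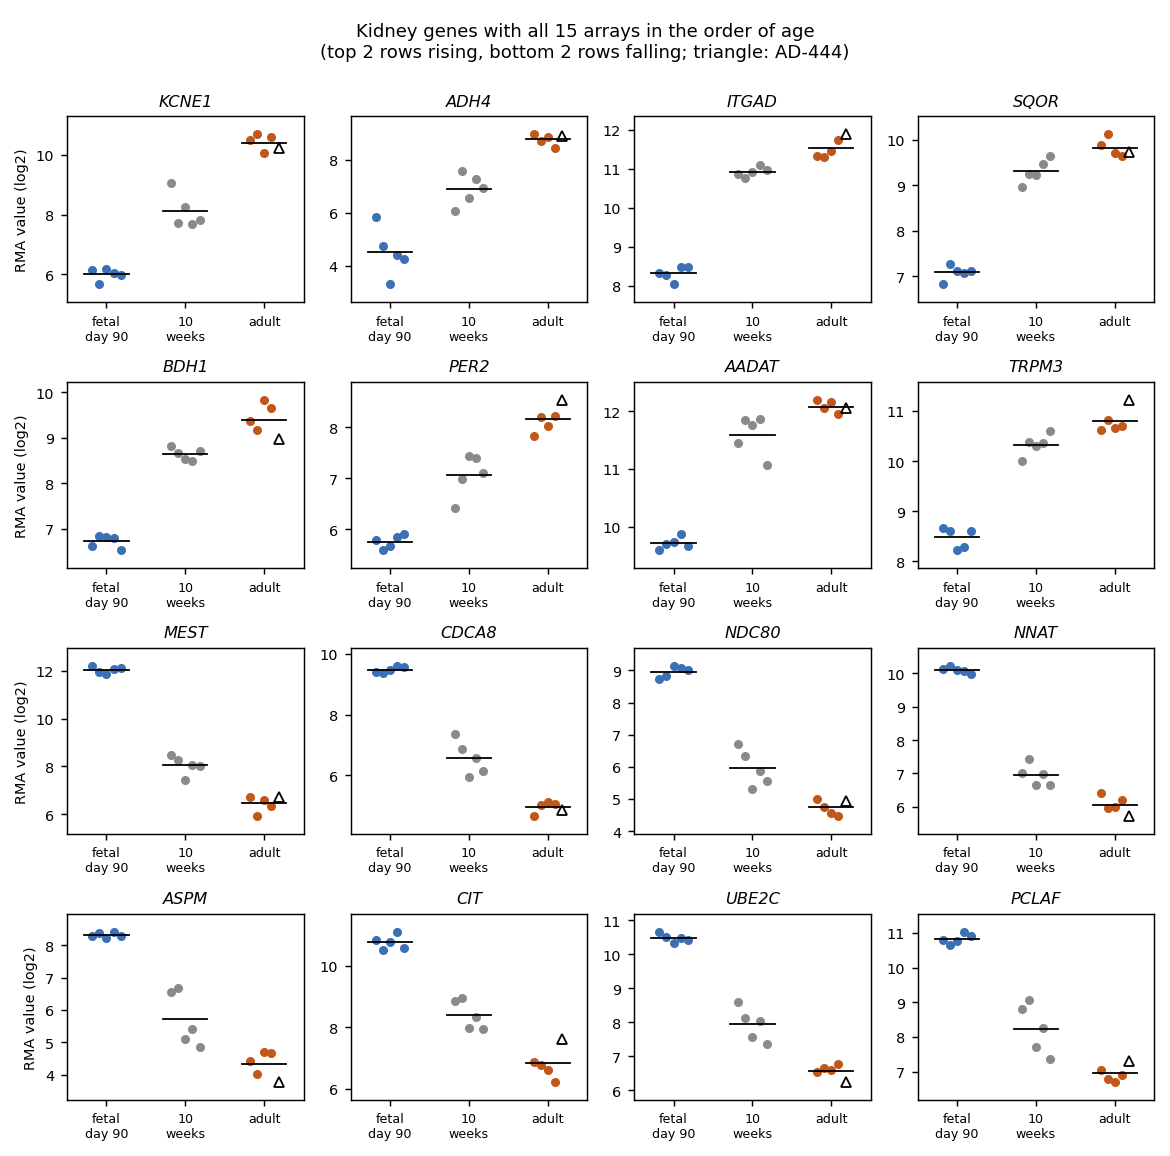
RMA values in log2 units of 16 genes whose 15 arrays stand in the order of age with no overlap between neighbouring groups, 8 rising and 8 falling (lines, means; open triangle, AD-444). KCNE1 runs from at most 6.17 in fetuses to at least 10.05 in adults and MEST from at least 11.87 to at most 6.72.

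The lists of genes describe which functions the net change touched. Of 1080 genes in 51 lists, 341 were higher in adults and 313 lower. Members of each list are read against the background of 23.8% higher and 22.1% lower over all genes, and no list was tested as a set. Leaving out AD-444 moved no count of these lists by more than 2 genes.

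Nearly all mitosis genes fell. Of 30 mitosis genes 29 were lower in adults and 0 higher, with a median of -2.03, and 16 of them were in order of age. Mean level of the list was 8.23 to 8.41 per fetal array and 6.05 to 6.09 per adult array. Besides those above, CDK1 (-3.38), NUSAP1 (-3.59) and BIRC5 (-3.03) fell by over 3 log2 units. DNA replication had 31 of 40 lower and 1 higher, with a median of -0.65. MCM4 of the replicative helicase read 9.14 to 9.31 in fetuses and 6.96 to 7.40 in adults, a change of -1.95. TYMS, which makes thymidylate, changed by -1.94 and ORC6 of the origin recognition complex by -1.17. The only replication gene that rose was RPA3 (0.22).

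Among G1 and S phase regulators 8 of 19 were lower and 3 higher. The cyclins CCND2 (-2.03) and CCNE2 (-1.62) fell, as did MYC (-1.14). CDKN1A, the p21 inhibitor, read 5.95, 6.31, 5.95, 5.65 and 6.0 in fetuses and 7.09, 7.10, 7.43, 6.82 and 7.23 in adults. All adults were above all fetuses, a rise of 1.16 ± 0.12 (adjusted p = 8.3e-07). Double-strand break repair had 10 of 18 lower and 0 higher, led by XRCC3 (-1.78).

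Chromatin and DNA methylation genes were lower for 17 of 25, and 1 was higher. UHRF1, which guides maintenance methylation, read 9.16, 9.22, 9.11, 9.35 and 9.36 in fetuses and 4.57, 5.14, 5.35, 5.11 and 6.52 in adults, with AD-444 the highest adult, and fell by 3.90 ± 0.28 (adjusted p = 7.63e-09). The methyltransferases DNMT3A (-1.79) and DNMT1 (-1.31) and the Polycomb enzyme EZH2 (-2.12) fell. Its paralogue EZH1 rose by 0.41, a call that was lost without AD-444. With arrays centred on their medians 11 of these genes were lower. Splicing genes were lower for 21 of 41, with a small median of -0.24, and SRSF5 was the only one higher (0.59). Without AD-444, 3 splicing genes were higher. Of 62 cytosolic ribosomal proteins 1 was higher (RPS28, 0.30) and 1 lower (RPS20, -0.22), and neither call held in every alternative.

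**Figure D4:**
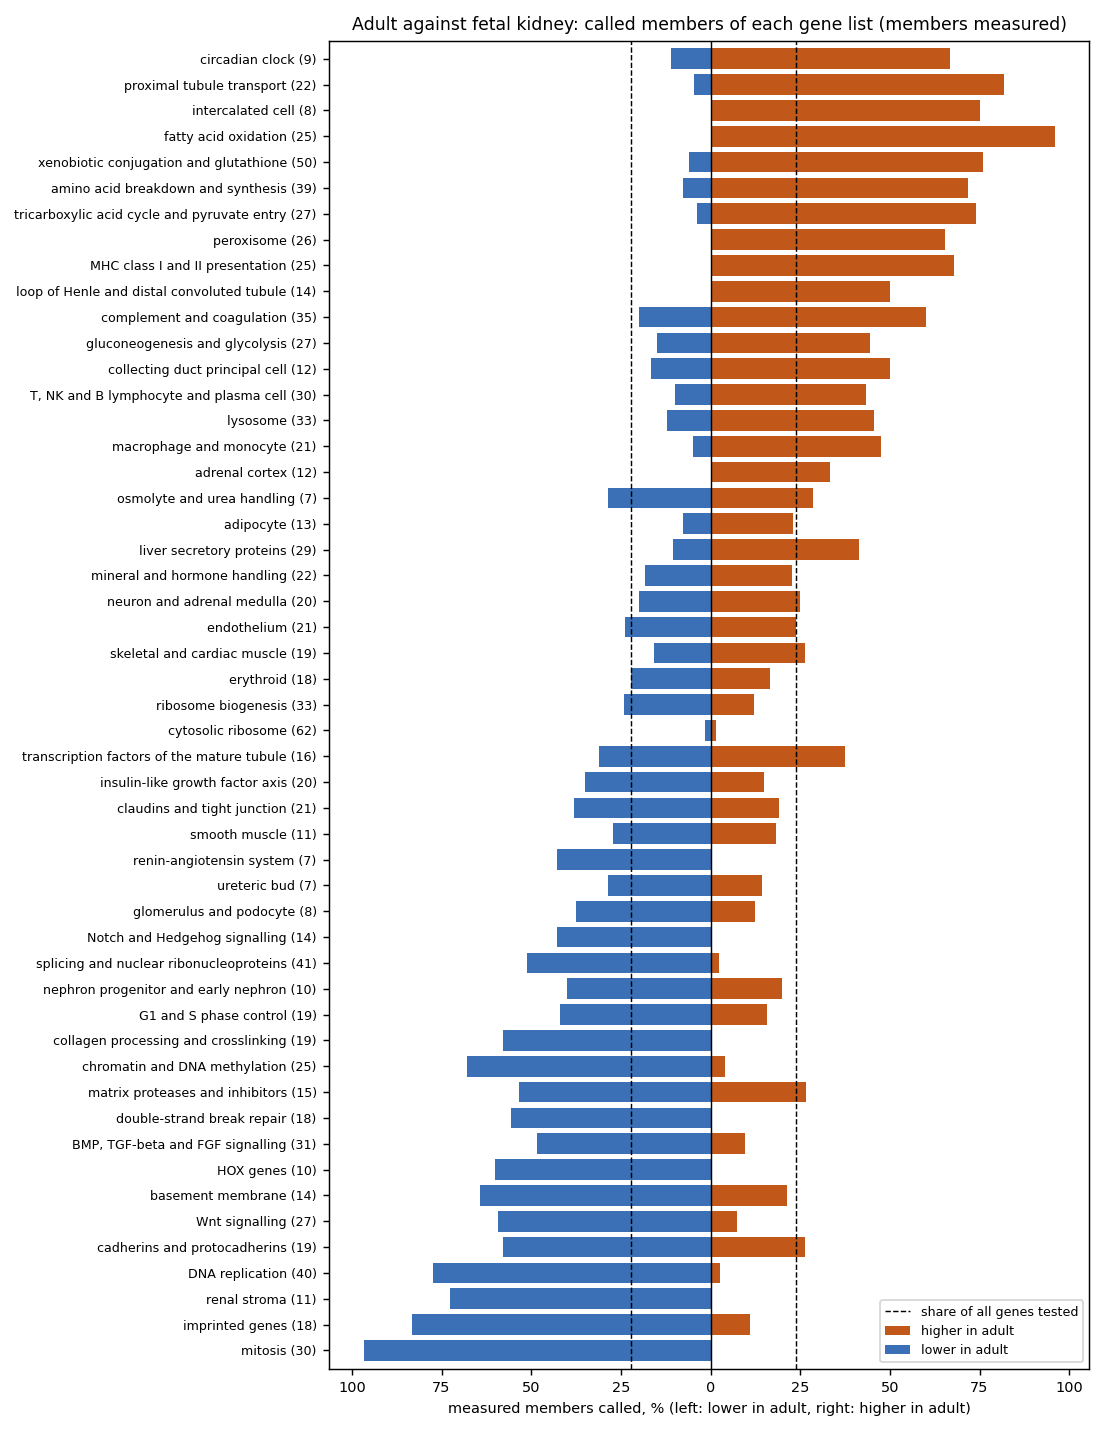
Share of the measured members of each of 51 gene lists that were called lower (left) or higher (right) in adult kidney, in percent, ordered by the list's median difference; dashed lines mark the shares over all 9155 genes (22.1% lower, 23.8% higher). Fatty acid oxidation, with 24 of 25 higher, and mitosis, with 29 of 30 lower, are at the extremes.

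Most imprinted genes fell. Of 18 imprinted genes 15 were lower in adults and 2 higher (KCNQ1, 0.66, and NAP1L5, 0.34), and 5 were in order of age. PEG3, a zinc finger gene expressed from the paternal allele, read 10.41, 10.21, 10.0, 10.48 and 10.49 in fetuses and 7.56, 7.75, 7.01, 7.08 and 6.68 in adults and fell by 3.10 ± 0.20 (adjusted p = 2.07e-09). PLAGL1 (-1.53), CDKN1C (-1.58), MEG3 (-1.66) and DLK1 (-0.99) were lower too.

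In the insulin-like growth factor axis, 7 of 20 genes were lower and 3 higher. IGF2, the fetal growth factor, read 11.60, 12.10, 11.33, 11.37 and 11.74 in fetuses and 8.78, 9.33, 7.92, 8.55 and 7.48 in adults and fell by 3.22 ± 0.29 (adjusted p = 1.07e-07). Its chosen probe set may match several transcripts. Its other probe sets differed by -1.34, 0.28 and 0.29, so the direction rests on the probe set. The RNA-binding proteins of IGF2 transcripts both fell, IGF2BP3 from 10.01 to 10.53 in fetuses to 6.36 to 7.46 in adults (-3.57 ± 0.21, adjusted p = 6.15e-10) and IGF2BP1 by 1.59. Of the receptors, IGF2R, which clears IGF2, fell by 0.63 with all 15 arrays in order of age, while IGF1R (0.33, adjusted p = 0.233) and INSR (-0.06, adjusted p = 0.734) were not called. Without AD-444, IGF1R was called higher (0.52, adjusted p = 0.0247), and so it was with quality weights for arrays. IGF1 itself was not called (-0.11, adjusted p = 0.427), but the mean of its probe sets was called lower (-0.23, adjusted p = 0.0126) and the value without multi-transcript probe sets higher (0.34, adjusted p = 0.0133).

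The binding proteins of this axis differed among themselves. IGFBP3 rose by 0.92, IGFBP5 by 0.90 and IGFBP4 by 0.84. IGFBP2 read 13.23, 13.36, 13.23, 13.20 and 13.13 in fetuses and 12.28, 12.19, 11.95, 12.28 and 10.37 in adults, with AD-444 below the rest. It fell by 1.42 ± 0.27 (adjusted p = 0.000406), and the difference was -1.06 without that array. IGFBP1, IGFBP6 and IGFBP7 were not called. IGFBP6 (-0.70, adjusted p = 0.0521) was called lower without AD-432 or without AD-434. HMGA1 (-0.75) and STC1 (-0.42), also in this list, were lower.

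The basement membrane list divided by chain. Of 14 genes 9 were lower and 3 higher. COL4A3, a chain of the mature glomerular network, read 8.06, 8.25, 8.33, 8.0 and 8.47 in fetuses and 9.21, 9.49, 8.54, 9.17 and 9.21 in adults and rose by 0.90 ± 0.17 (adjusted p = 0.000403). Its partner COL4A4 read 8.18, 8.44, 8.03, 8.20 and 8.41 and 9.41, 9.76, 9.05, 9.70 and 9.03 and rose by 1.14 ± 0.14 (adjusted p = 4.47e-06). For both, every adult lay above every fetus. COL4A1, a chain of the embryonic and widespread network, read 11.98, 11.90, 11.80, 11.84 and 11.80 in fetuses, 11.27, 11.51, 11.31, 11.08 and 11.06 in lambs and 10.65, 10.44, 10.66, 10.80 and 10.82 in adults. It was in order of age and fell by 1.19 ± 0.10 (adjusted p = 2.93e-08).

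The linker NID1 also fell in order of age (-1.54), as did FREM1 (-3.43), which joins epithelium to mesenchyme in the embryo. Laminin chains LAMA4 (-1.10), LAMC1 (-0.85), LAMB2 (-0.52) and LAMB1 (-0.42) fell, and LAMB3 was higher by 0.38 (adjusted p = 0.0335). LAMC1 was not called without multi-transcript probe sets (-0.23, adjusted p = 0.121), and LAMB3 lost its call without either of fetuses 19A and 26A or any one of the adults other than AD-444 (adjusted p up to 0.0972). Collagen processing had 11 of 19 lower and 0 higher. FKBP10, a collagen chaperone, read 10.10 to 10.53 in fetuses, 7.81 to 8.24 in lambs and 7.21 to 7.64 in adults (-2.77), and the chaperone SERPINH1 read 11.84 to 12.05, 10.82 to 11.20 and 9.97 to 10.58 (-1.62). Both were in order of age. Among matrix proteases 8 of 15 were lower, led by MMP16 (-2.79) and ADAM12 (-2.06), and 4 higher.

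**Figure D5:**
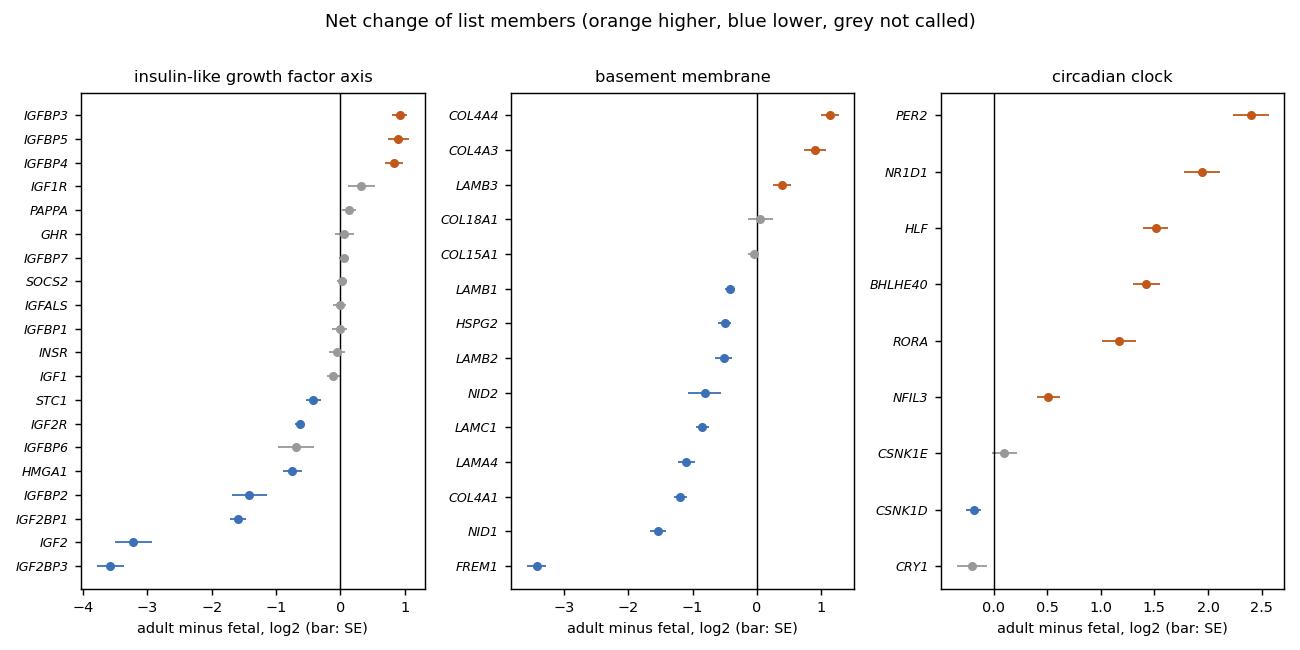
Adult minus fetal difference in log2 units, with its standard error, of every measured member of the insulin-like growth factor axis, the basement membrane and the circadian clock (orange, called higher; blue, called lower; grey, not called). COL4A3 and COL4A4 lie to the right at 0.90 and 1.14, and COL4A1 to the left at -1.19.

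In Wnt signalling, a pathway of nephron formation, 16 of 27 genes were lower and 2 higher. LEF1, a transcription factor of the pathway, read 11.14 to 11.29 in fetuses and 8.58 to 9.48 in adults (-2.06), the receptor FZD10 changed by -2.13, and the inhibitor DKK1 by -1.43. In BMP, TGF-beta and FGF signalling 15 of 31 were lower and 3 higher. FST, which binds activin, read 9.18, 9.66, 9.84, 9.45 and 9.94 in fetuses and 6.22, 5.67, 5.83, 5.83 and 5.81 in adults and fell by 3.74 ± 0.22 (adjusted p = 5.11e-10). INHBA, a subunit of activin, fell by 1.35, so both the ligand and its binder were lower. BMP7, which keeps nephron progenitors alive, fell by 2.69. Notch and Hedgehog genes were lower for 6 of 14, among them SMO (-1.44), and HOX genes for 6 of 10, with none higher in either list. HOXA10 read 11.68 to 11.95 in fetuses and 10.21 to 10.97 in adults, lowest in AD-444.

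Markers of the cells of the developing kidney differed by cell type. Of 11 stromal genes 8 were lower and 0 higher. MEIS1, a stromal homeobox gene, read 9.59, 9.49, 9.53, 9.40 and 9.50 in fetuses and 7.83, 7.71, 7.80, 7.73 and 7.77 in adults (-1.73 ± 0.10, adjusted p = 3.62e-10), and TCF21 changed by -1.54. CRABP1 and CRABP2, which bind retinoic acid in the cytoplasm, changed by -5.94 and -4.21. The only CRABP1 probe set may match several transcripts. Of 7 ureteric bud genes RET (-1.66) and WNT11 (-1.47) were lower. CLDN6 was called higher (0.34), but its second probe set differed by -0.93, and without AD-444 the adjusted p was 0.0524. The CLDN6 call was also lost without AD-442 or any one of fetuses 10A, 14A, 26A and 80B (adjusted p up to 0.0849). Of 10 nephron progenitor genes 4 were lower and 2 higher. Among the lower were BMP7 (-2.69), ROBO2 (-0.92) and JAG1 (-0.56), and the higher pair was CITED1 (0.81) and CRYM (0.61). Without AD-444, 3 of the list were lower. SNAP25 (-2.18), UCHL1 (-1.52) and ELAVL4 (-3.98), from the list of neuronal genes, were also lower. In that list 4 of 20 were lower and 5 higher, the latter including DDC (1.80) and STMN2 (1.44). UCHL1 was spread among the adults, at 11.62 on AD-444 and 8.68 to 11.42 on the others. TH, which makes catecholamine precursors, read 4.90 to 5.55 in fetuses and 5.07 to 5.56 in adults.

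In each tubule list more genes were called higher in adults than lower. Proximal tubule transport had 18 of 22 higher and 1 lower, with a median of 1.11. SLC7A9, the cystine carrier, read 9.26, 9.55, 9.84, 9.75 and 10.26 in fetuses and 12.38, 12.35, 12.46, 12.45 and 11.89 in adults. AD-444 was the lowest adult yet above every fetus, and the rise was 2.57 ± 0.16 (adjusted p = 7.85e-10). SLC4A4, the basolateral bicarbonate carrier (2.26), the water channel AQP1 (2.13), the sodium-proton exchanger SLC9A3 (1.72) and the glucose carrier SLC5A2 (1.41) rose. ABCG2, an efflux pump, was the one that fell (-1.33).

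In the distal nephron, 7 of 14 genes of the loop and distal convoluted tubule were higher and 0 lower. SLC12A3, the thiazide-sensitive carrier, read 8.17, 8.10, 8.59, 8.22 and 8.11 in fetuses, 9.97, 9.90, 10.25, 10.68 and 9.90 in lambs and 10.07, 10.02, 9.15, 9.57 and 9.37 in adults. The lambs overlapped the upper adults, and the net rise was 1.40 ± 0.18 (adjusted p = 9.15e-06). In principal cells 6 of 12 were higher and 2 lower. All 3 subunits of the epithelial sodium channel rose, SCNN1A by 1.05, SCNN1B by 0.88 and SCNN1G by 1.13. SCNN1A was in order of age, with 8.05 to 8.49 in fetuses, 8.63 to 8.96 in lambs and 9.23 to 9.51 in adults. HSD11B2, which protects the mineralocorticoid receptor from cortisol, rose by 1.0.

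Intercalated cells, which secrete acid or base, had 6 of 8 genes higher and 0 lower. SLC4A9, an anion exchanger of this cell, read 7.09, 8.16, 7.74, 7.41 and 7.67 in fetuses and 10.54, 10.69, 10.43, 10.32 and 10.59 in adults and rose by 2.90 ± 0.15 (adjusted p = 1.82e-10). The carbonic anhydrase CA2 rose by 2.16, the ammonia transporter RHBG by 1.23, and the proton pump subunits ATP6V0A4 and ATP6V1B1 by 1.18 and 0.65. The anion exchanger SLC4A1 was not called (-0.07, adjusted p = 0.707). In the glomerulus list 1 of 8 was higher (PLA2R1, 1.29) and 3 lower (TRPC6, -1.21, NES, -1.18, and SYNPO, -0.39), although the second SYNPO probe set differed by 0.13 and the mean of the pair was not called (-0.13, adjusted p = 0.286). In the renin-angiotensin list 3 of 7 were lower and 0 higher. AGTR2, the angiotensin receptor that is prominent in fetal tissue, read 6.02, 6.04, 6.14, 6.53 and 6.62 in fetuses and 4.98, 4.91, 5.08, 4.80 and 5.13 in adults and fell by 1.29 ± 0.13 (adjusted p = 2.6e-07). AGTR1 fell by 0.72 and AGT by 0.41, a call that was lost without fetus 19A for AGT (-0.36, adjusted p = 0.05).

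In each metabolic list more genes were called higher in adults than lower. Of 25 genes of fatty acid oxidation 24 were higher and 0 lower, with a median of 0.92. ACAA1, a peroxisomal thiolase, read 9.03 to 9.39 in fetuses and 10.71 to 11.39 in adults (1.98), ACADVL, the very long chain dehydrogenase, rose by 1.08, and PPARA, the receptor that controls the pathway, by 1.82. The tricarboxylic acid cycle had 20 of 27 higher. IDH3A was the one member lower (-0.64), beside IDH3G at 0.66 in the same enzyme. CS, citrate synthase, was not called (0.11, adjusted p = 0.248). Peroxisomal genes were higher for 17 of 26 and lower for 0.

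Of 27 genes of gluconeogenesis and glycolysis 12 were higher and 4 lower. PCK1, which commits to glucose production, read 10.03, 9.71, 9.95, 10.30 and 10.71 in fetuses and 13.24, 13.37, 13.25, 13.52 and 13.37 in adults and rose by 3.21 ± 0.14 (adjusted p = 2.07e-11). FBP1 (2.61), FBP2 (2.76), PCK2 (1.97) and the fructose kinase KHK (3.49) rose. The 4 that fell were PKM (-0.78), LDHA (-0.71), HK1 (-0.52) and SLC2A1 (-0.59), known for glucose use. ENO1 (0.39) and PGK1 (0.64), which work in both directions, rose. Amino acid enzymes were higher for 28 of 39, with SHMT1 at 3.42, and 3 were lower. Conjugation and glutathione genes were higher for 38 of 50 and lower for 3. SULT1E1, the estrogen sulfotransferase, was the largest exception (-3.88 ± 0.28, adjusted p = 6.93e-09).

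The circadian list had 6 of 9 higher and 1 lower, with a median of 1.17. NR1D1, the nuclear receptor REV-ERB-alpha, read 7.75, 8.27, 7.89, 7.73 and 8.06 in fetuses, 9.91, 9.72, 10.12, 10.30 and 10.49 in lambs and 10.33, 10.10, 9.86, 9.45 and 9.67 in adults. The lambs and adults overlapped and were both above the fetuses, a net rise of 1.94 ± 0.17 (adjusted p = 7.08e-08). HLF rose by 1.51, RORA by 1.17 and BHLHE40 by 1.43, the last in order of age. CRY1 was not called (-0.20, adjusted p = 0.254), and CSNK1D was lower by 0.19 (adjusted p = 0.044). The hour of collection is not given in the labels, so hour and age cannot be told apart for these genes. Of the mature tubule's transcription factors 6 of 16 were higher, among them KLF15 (0.84) and RXRA (0.60), and 5 lower, led by PPARG (-1.58).

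The immune lists, too, held more genes called higher in adults than lower. Antigen presentation had 17 of 25 higher and 0 lower. PSMB9, an immunoproteasome subunit, read 7.11, 6.98, 7.09, 6.73 and 6.85 in fetuses and 9.36, 9.58, 9.12, 9.0 and 8.95 in adults (2.25 ± 0.16, adjusted p = 5.37e-09). BOLA-DRA, a class II chain, rose by 1.69. Lymphocyte and plasma cell genes were higher for 13 of 30 and lower for 3, with IGHM, the IgM heavy chain, at 6.63 to 7.09 in fetuses, 8.34 to 10.19 in lambs and 9.72 to 10.96 in adults (3.24). CD247, another subunit of the T cell receptor complex, fell by 1.13, against the rise of CD3E and CD3D (0.86). Macrophage genes were higher for 10 of 21 and lower for 1, with CD14 at 1.07. Complement and coagulation had 21 of 35 higher and 7 lower, with CFI at 2.39.

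Other tissues' genes were followed in the same arrays. The liver list had 12 of 29 higher and 3 lower. HRG (6.51) and TTR (4.57) rose, whereas ALB, the main liver protein, read 10.74 to 11.05 in fetuses and 10.52 to 11.32 in adults and was not called. The other ALB probe sets disagreed, with differences from -0.42 to 0.94. FGG was called (1.34, adjusted p = 0.0429) but not without AD-444 (0.84, adjusted p = 0.11). Its call was also lost without AD-442 (1.07, adjusted p = 0.117) or without any one of fetuses 10A, 14A, 19A and 80B. In a fit of the fetal and adult arrays alone the adjusted p of FGG was 0.0664. Of 12 adrenal cortex genes 4 were higher and 0 lower. The 4 were SULT2A1, CYP17A1 (0.91), FDX1 (0.66) and HSD3B1 (0.57). SULT2A1 differed by 1.89 with the mean of its probe sets, but by 0.08 without multi-transcript probe sets (adjusted p = 0.538). STAR (6.60 to 7.06 in fetuses and 6.28 to 7.11 in adults) and CYP11A1 (3.61 to 3.90 and 3.54 to 4.05), which start steroid synthesis, were not called. Erythroid genes were lower for 4 of 18 and higher for 3. ALAS2, the heme enzyme of red cell precursors, read 7.74, 7.76, 7.70, 8.10 and 8.06 in fetuses and 5.04, 5.41, 5.16, 5.10 and 4.89 in adults and fell by 2.75 ± 0.12 (adjusted p = 1.32e-11). The globin genes HBB (-8.04) and HBG (-5.97) and the fetal liver protein AFP (-6.67) rested on probe sets that may match several transcripts. With those probe sets left out the differences were -1.03, -1.55 and -0.34. Whether such cells or RNA from them had a part in any result was not tested. In the adipocyte list 3 of 13 were higher, and ADIPOQ, its defining hormone, stayed at 3.38 to 3.66 in fetuses and 3.27 to 3.53 in adults.

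Junctions, vessels and muscle gave mixed lists. Cadherins and protocadherins were lower for 11 of 19 and higher for 5. PCDH10 read 7.36, 7.22, 7.52, 7.95 and 7.54 in fetuses and 4.96, 3.65, 4.28, 3.65 and 4.28 in adults and fell by 3.35 ± 0.21 (adjusted p = 1.23e-09), while CDHR2, of the proximal tubule brush border, rose by 0.82. Claudins and tight junction genes were lower for 8 of 21 and higher for 4. CLDN2, which lets sodium and water pass in the proximal tubule, rose by 1.26, and CLDN11 fell by 1.21. Of 21 endothelial genes 5 were higher and 5 lower, close to the background on both sides. CDH5, the adhesion protein of endothelium, read 11.49, 11.73, 11.56, 11.69 and 10.73 in fetuses and 9.68, 9.59, 10.13, 10.45 and 9.66 in adults and fell by 1.54, with fetus 80B the lowest fetus. FLT1, a receptor for VEGF, rose by 1.06. Smooth muscle genes were lower for 3 of 11 and higher for 2, and those of skeletal and cardiac muscle higher for 5 of 19 and lower for 3. ACTC1, the cardiac actin, fell by 3.03.

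Among the remaining lists, lysosomal genes were higher for 15 of 33 and lower for 4, with LIPA, the acid lipase, at 1.35. Ribosome biogenesis had 4 of 33 higher and 8 lower, with the nucleolar methyltransferase FBL at -0.62. Mineral and hormone handling had 5 of 22 higher and 4 lower. In it DIO1, which activates thyroid hormone, read 4.74, 5.0, 4.91, 4.88 and 4.86 in fetuses and 8.31, 7.88, 7.52, 8.65 and 7.77 in adults and rose by 3.15 ± 0.30 (adjusted p = 1.75e-07). PRLR, the prolactin receptor, rose by 1.95, and the endothelin receptor EDNRA fell by 2.12. Osmolyte handling had 2 of 7 higher and 2 lower. SORD, which turns sorbitol into fructose, rose by 1.96, and AKR1B1, which makes sorbitol, fell by 0.57.

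For some genes the value depends on the probe set. Each was read by its brightest probe set, and the mean over all probe sets of the gene was smaller by over 1.5 times for AQP1 (1.08), KHK (1.69), FLT1 (0.53), COL4A4 (0.60), ITGAD (1.81), CDCA8 (-2.41), ASPM (-2.14), UHRF1 (-2.21), XRCC3 (-0.79), MMP16 (-0.92), PEG3 (-1.16), DKK1 (-0.67), CDH5 (-0.74), CLDN11 (-0.79), NES (-0.48) and TRPC6 (-0.50). All 16 kept their direction and their call. Further genes moved in the same way, among them MYBPC1 (1.93), CRP (2.42), COL11A1 (-1.70), EPHX2 (1.03), LAMC1 (-0.46) and KMT2E (-0.40), which also stayed called. CRYM differed by 2.92 on the probe set that was brighter in kidney. CRABP1, GNGT1, SSBP4, PPARG, PRLR, IGHM and FDX1 had only probe sets that may match several transcripts. In the fit of all 30 arrays, 13 of 255 called genes that were checked lost their call. They were ADH1C, AGT, CLDN6, CLDN10, DDO, DTX1, EPB41, FGG, HPD, LAMB2, LMOD1, RPS28 and SYNPO.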

How the data were processed

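The deposited values are log2 intensities of an Affymetrix bovine array, made by the authors with RMA and Partek per the submitters' processing notes; the sources used here name no version. RMA corrects background, equalises the arrays and summarises probes, so fold differences of weak probe sets are compressed and no detection call exists. The log2 table holds 24128 probe sets. Of these, 13318 carried 1 gene symbol in the platform annotation, 86 several and 10724 none, and 112 were controls. For each of 9155 genes the probe set whose average across the 30 arrays was largest was used, as 2913 genes had more than 1. Sheep names and neighbours came from the RefSeq gene table of assembly ARS-UI_Ramb_v3.0.

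The 15 kidney arrays were fitted together with limma 3.58.1 in R 4.3.3 (lmFit, eBayes), and p-values were adjusted by the Benjamini-Hochberg method over all genes. The fit was tested on simulated data. Genes were named by largest net change, largest small-step or ordered change, lowest p within each of 51 lists, and all measured members of the growth factor and basement membrane lists. Further list members, outside these rules, were named with their values known. Members and lists were chosen with earlier results of these data known. Alternatives changed the probe set rule, filter, scaling, model and arrays. The precision is limited by 5 arrays a group.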

Additional observations from a re-analysis of the deposited data

Results flagged for a closer look

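In groups of 5 arrays, 1 array was set apart from the other 4 when its gap to the nearest of them took up most of the group's range. Chance sets apart about 1 in 20 groups, and 562 groups from a set of 281 genes were examined. The genes flagged below were no more frequent than that, so no single flag is read as a result about its gene. The ratio of gap to range is given for each.

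AD-444 was set apart for BMP4 (0.749), SLC22A6 (0.806), SLC7A9 (0.803), MCM4 (0.786), LSM2 (0.831), HOXA10 (0.944) and IGFBP2 (0.827), in each as the lowest adult, and for MMP2 (0.742) as the highest. Its mean correlation with the other adults was set apart too (0.727). BMP4 read 6.41 on it against 7.89 to 8.39, IGFBP2 10.37 against 11.95 to 12.28, and SLC22A6 10.17 against 11.35 to 11.64. Of the other adults, AD-441 was low for HRG (0.765) and high for EPHX2 (0.77), and AD-432 was high for FST (0.713).

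Fetus 10A was low for ACSM1 (0.719), PALB2 (0.766) and FCGR1A (0.775) and high for POSTN (0.763) and ADIPOQ (0.892). Fetus 80B was low for COL11A1 (0.831) and CDH5 (0.765) and high for CD3E (0.753) and BOLA-DQA1 (0.786). CD3E read 7.58 on it against 6.46 to 6.74, and BOLA-DQA1 8.80 against 6.70 to 7.15. Fetus 19A was high for SLC12A3 (0.754), SHMT1 (0.817) and SCG3 (0.79) and low for ORC6 (0.731). Fetus 26A was low for BOC (0.936), and fetus 14A high for LAMB2 (0.742).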

How the results depend on the processing

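Counts over all genes, and over all lists together, kept within 1.5 times the reported value in every alternative, with 1 exception. Genes rising in order of age, 44 as reported, ranged from 43 to 67 when 1 array was left out. The other counts then ranged from 3833 to 4308 for all calls, 581 to 939 for small-step genes, and 76 to 103 for ordered falls. Counts of single lists moved further in places: splicing genes called higher numbered 1 as reported and 3 without AD-444. Repeated quantile normalisation gave 2300 higher and 2004 lower, centring on array medians 2531 and 1781, a fit of all 30 arrays 1863 and 1757, and a filter of the 25% lowest genes 1880 and 1735. Membership of the small-step set was less stable than its size: 461 to 751 of the 754 genes stayed in it over 9 alternatives and 447 to 675 over the left-out arrays. Single genes were checked for a set of 281, of which 255 were called, and not for every gene named in the text. EZH1, whose call was lost without AD-444, was outside this set. Of the 255, 232 kept direction and call wherever they were tested in 10 alternatives and 15 left-out arrays. Of the rest, 22 lost the call at least once and 2 reversed, 1 of them doing both. Only 242 of the 255 were tested without multi-transcript probe sets, and 219 after the filter of the 25% lowest genes. CLDN6 was -0.30 with the mean of its probe sets and IGF2 0.29 without multi-transcript probe sets; different probe sets were read in both. Quality weights for arrays gave 856 small-step genes, 546 shared. No paired analysis was possible because the ages share no animal number. Signals near the bottom of the array, as for SLC12A1, limit what can be seen.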

Other observations

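Some genes were spread widely among the adults, and were named after their values were seen. MYBPC1, a myosin binding protein of muscle, read 5.20, 5.82, 5.66, 6.09 and 6.12 in fetuses and 8.71, 8.40, 10.24, 10.11 and 9.86 in adults. AD-432 and AD-434 were its lowest adults, as they were for PAGE4, and the net difference was 3.69 ± 0.37 (limma, adjusted p = 3.56e-07). STMN2, a neuronal microtubule protein, read 8.98, 7.49, 7.01, 7.46 and 6.68 in adults, highest in AD-432, and 5.79 to 6.35 in fetuses. BOLA-DQA1, a class II chain of antigen presentation, read 5.0, 5.54, 10.55, 7.70 and 10.22 in adults and 6.83, 7.15, 7.15, 6.70 and 8.80 in fetuses. AD-441 and AD-444 were above every fetus, AD-432 and AD-434 below every fetus, and the gene was not called (0.47, adjusted p = 0.683).

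The proteins CRP and LECT2, known as products of the liver, were spread within ages. CRP, an acute phase protein, read 4.13, 4.72, 4.86, 4.44 and 5.11 in fetuses, 7.96, 5.77, 5.40, 6.37 and 7.73 in lambs and 5.26, 9.26, 8.56, 9.06 and 10.55 in adults. AD-432 stayed near the fetal range and the other adults were far above it, and the net difference was 3.89 ± 0.73 (adjusted p = 0.000314). LECT2, a leukocyte chemotactic protein, read 7.91, 7.96, 5.10, 4.88 and 4.30 in lambs. Lambs 7 and 8 were close to the adults (7.94 to 9.25) and the other 3 were in or near the fetal range (4.53 to 5.17). Its net rise was 3.93 ± 0.58 (adjusted p = 3.27e-05).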
